A study of Mus musculus with 2 samples.

Results

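Mir335, Mir483, Mir675, Mir296 and Mir298 are the miRNA genes of the imprinted loci Mest, Igf2, H19 and Gnas. They were chosen by name, through their Ensembl identifiers in GENCODE M21, and all 5 were found among the 1973 miRNA genes listed in the count tables. The tables come from small RNA libraries of newborn mouse skeletal muscle, made from total RNA of strain B6NCrl at postnatal day 0. There were 2 libraries, replicate 1 from pup 1 and replicate 2 from pup 2 of 1 pregnancy. The labels name no treatment or altered allele, do not say which muscle was taken and record that sex was not collected. Both libraries belong to 1 group, so no conditions could be compared. Values are own-strand read counts, or CPM, the count divided by the library's total over all listed miRNA genes and multiplied by 1000000.

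Imprinted genes are expressed mainly from the allele of 1 parent. Igf2 encodes a growth factor of the fetus and is expressed from the paternal allele, while the non-coding RNA H19, its neighbour, is expressed from the maternal allele. Mest is a paternally expressed gene active in mesodermal tissue of the embryo, and Gnas encodes the stimulatory G protein alpha subunit in an imprinted locus with several sense transcripts and antisense transcripts. A miRNA gene inside such a transcript is cut from it as a hairpin, from which either arm can give a mature miRNA of its own, and bases 2 to 8 of the mature miRNA, the seed, do most of the pairing with target mRNAs. The counts did not separate the parental alleles.

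The mature sequences are shown because the seed defines which mRNAs a miRNA can pair with. All 5 members were matched by symbol to RefSeq entries on GRCm38.p6. Each sequence runs 5′ to 3′ with the seed in capitals.
miR-335-5p: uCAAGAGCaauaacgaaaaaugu
miR-335-3p: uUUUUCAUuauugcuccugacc
miR-483-5p: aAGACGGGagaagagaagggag
miR-483-3p: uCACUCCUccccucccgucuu
miR-675-5p: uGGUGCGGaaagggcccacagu
miR-675-3p: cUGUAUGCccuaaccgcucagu
miR-296-5p: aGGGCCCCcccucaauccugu
miR-296-3p: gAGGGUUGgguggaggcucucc
miR-298-5p: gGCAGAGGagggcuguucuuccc
miR-298-3p: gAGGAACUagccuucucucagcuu

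The 10 mature sequences carried 10 different seeds. None of these seeds occurred in another of the 1679 mature mouse miRNAs in the sequence table. Within that table each member thus stood alone by seed, the neighbours Mir296 and Mir298 included. The table holds 1005 hairpins beside 1973 listed genes, and listed genes missing from it could not be compared. Base composition separated Mir335 from the other members. In miR-335-5p, 12 of 23 bases are A and the GC content is 30.4%, and only 27 of the 1679 mature sequences had a lower one. Its other arm, miR-335-3p, had 36.4%. The arms of the other 4 genes reached 68.2% in miR-296-3p and were lowest in miR-298-3p, where G and C make up 12 of the 24 bases, beside a median of 52.2% over the table. The longest run of 1 base in any arm was the 7 C of miR-296-5p, which begins inside its seed.

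The tables count reads over the whole gene, which is the hairpin, so the 2 arms of a gene share 1 count. The hairpins are shown to place both arms, with the mature sequences in capitals.
Mir335, chr6:30741299-30741396, plus strand: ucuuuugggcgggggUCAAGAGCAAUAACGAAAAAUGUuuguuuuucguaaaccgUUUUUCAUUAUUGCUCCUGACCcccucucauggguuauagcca
Mir483, chr7:142654924-142654996, minus strand: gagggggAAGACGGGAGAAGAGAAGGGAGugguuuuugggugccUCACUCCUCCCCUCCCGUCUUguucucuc
Mir675, chr7:142577064-142577147, minus strand: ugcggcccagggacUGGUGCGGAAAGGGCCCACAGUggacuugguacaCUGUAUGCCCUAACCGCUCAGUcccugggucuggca
Mir296, chr2:174267047-174267125, minus strand: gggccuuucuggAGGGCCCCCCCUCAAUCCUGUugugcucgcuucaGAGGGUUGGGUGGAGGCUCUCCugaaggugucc
Mir298, chr2:174267504-174267585, minus strand: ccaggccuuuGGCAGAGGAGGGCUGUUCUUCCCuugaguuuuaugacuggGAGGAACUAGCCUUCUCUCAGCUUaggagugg

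None of the 5 hairpins shared a stretch of 20 bases with another of the 1005 hairpins in the table, and no mature arm was found inside another hairpin. Multimapping reads (30.2% and 29.9%) are not part of the gene counts, and copies elsewhere in the genome were not searched here. The predicted minimum free energy of folding was lowest for Mir675, at -56.0 kcal/mol over 84 bases, and highest for Mir483, at -33.8 kcal/mol over 73 bases. Of the bases of each hairpin, 73.5% (Mir335) to 78.5% (Mir296) were paired in the predicted fold.

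The 4 loci differ in how the annotation places the miRNA gene. Mir335 lies in an intron of all 7 Mest transcripts that span it, on the same strand. Mir483 lies in an intron of Igf2 and of the overlapping gene model Gm49394. Mir675 lies within an exon of 3 of the 4 H19 transcripts that span it. Mir296 and Mir298 lie 378 bases apart on the minus strand, and no GENCODE M21 transcript other than their own covers them on that strand. The antisense RNA Nespas, the closest annotated gene to Mir298 on that strand other than miRNA genes, ends 13.7 kb before it, and Gnas itself begins 16.7 kb away on the opposite strand.

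Own-strand counts totalled 3754895 in replicate 1 and 5133949 in replicate 2, which were 52.6% and 51.6% of all reads. Of the 1973 listed genes, 653 had a count in at least 1 library. The muscle miRNA gene Mir206 had the highest mean, 83322 ± 5480 CPM (SD, n = 2), and 9 of the 10 muscle markers were listed, with 8.13% of counts in replicate 1 and 8.94% in replicate 2. Nearly all of this share was Mir206. The others ran from a mean of 773 CPM (Mir133b) down to 1.12 CPM (Mir133a-2), with Mir1a-1 at 7.68 CPM. Multimapping reads are not in these counts, so genes with copies elsewhere, as the names Mir133a-1 and Mir133a-2 imply, can be undercounted. The hairpins of Mir1a-1, Mir133a-1 and Mir133a-2 were not in the sequence table, so shared stretches were not checked. Their low counts therefore do not give the level of their mature miRNAs. The libraries stood apart in 2 marker lists. All 7 epithelial genes and the cartilage gene Mir140 exceeded counting error and a 2-fold difference in favour of replicate 1, with 0.569% against 0.0230% of counts for the epithelial list and 0.654% against 0.0966% for Mir140. Red and white blood cell markers held between 0.0299% and 0.0646% of counts, the endothelial gene Mir126a 4.08% and 3.66%, and the liver gene Mir122 0.0180% and 0.0185%. The neural list held 0.134% and 0.158%, and the pancreatic and endocrine list 0.00682% and 0.00415%. These are bulk samples, in which fewer cells of a type and less RNA per cell cannot be told apart. Nothing in the labels beyond the pup distinguishes the libraries, so a difference between them may be of dissection, library or animal.

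All 5 genes were well above detection, and their levels spanned more than 2 orders of magnitude. Their joint share was 6.95% in replicate 1 and 6.07% in replicate 2, with exact Clopper-Pearson 95% limits of 6.92 to 6.97 and of 6.04 to 6.09. The limits in parentheses below are of the same kind. Most of this was Mir335. Without it the other 4 genes held 1.28% and 1.49%.

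Mir335, the miRNA of Mest, had 212934 counts in replicate 1 and 235054 in replicate 2. These are 56708 CPM (56475 to 56943) and 45784 CPM (45604 to 45965), with a mean of 51246 ± 7725 CPM (SD, n = 2). It ranked second of all listed genes in replicate 1 and seventh in replicate 2, with 5.67% and 4.58% of all counts on this 1 hairpin. Ranks and shares of all members rest on counts without multimapping reads. Genes with near copies elsewhere can be undercounted there, which can raise the members beside them. The higher level was in replicate 1.

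Mir483, the miRNA of Igf2, had 26220 counts in replicate 1 and 48273 in replicate 2. These are 6983 CPM (6899 to 7068) and 9403 CPM (9319 to 9487), with a mean of 8193 ± 1711 CPM (SD, n = 2). Here the higher level was in replicate 2. Mir483 had the widest relative spread of the 5 genes, an SD of 20.9% of its mean, and ranked 30 and 23.

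Mir675, the miRNA cut from H19, was the lowest of the 5, with 443 and 700 counts. These are 118 CPM (107 to 129) and 136 CPM (126 to 147), with a mean of 127 ± 13.0 CPM (SD, n = 2) and ranks of 169 and 158. The Mir675 locus lies 77.8 kb from Mir483 on the same strand.

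At Gnas, Mir298 had 14017 and 18474 counts, or 3733 CPM (3672 to 3795) and 3598 CPM (3547 to 3651). Its mean was 3666 ± 95.2 CPM (SD, n = 2), and it ranked 51 and 48. Mir296 had 7249 and 8878 counts, or 1931 CPM (1886 to 1975) and 1729 CPM (1694 to 1766). Its mean was 1830 ± 142 CPM (SD, n = 2), and it ranked 64 in each library. The SD was 2.60% of the mean for Mir298 and 7.78% for Mir296, the smallest of the 5 genes.

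**Figure D1:**
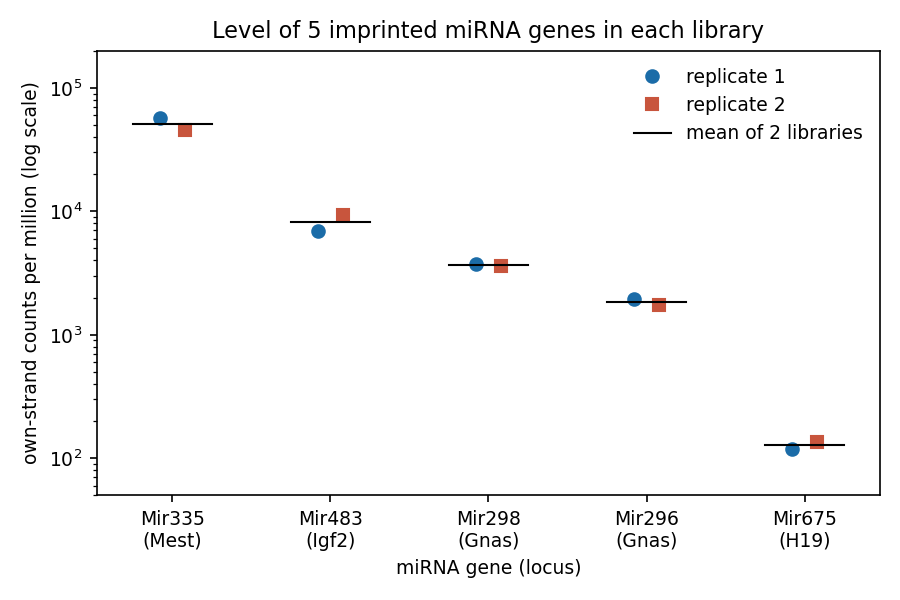
Own-strand CPM (log axis) of the 5 genes in each library, with circles for replicate 1, squares for replicate 2 and a line at the mean of the 2 libraries. The levels fall from 51246 CPM for Mir335 to 127 CPM for Mir675, and the gap between neighbouring genes is wider than the gap between the 2 libraries of any gene.

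The order Mir335, Mir483, Mir298, Mir296, Mir675 was the same in both libraries, and in no adjacent pair did the 2 values of one gene overlap those of the next. The closest neighbours were Mir298 and Mir296, at 3598 CPM or more against 1931 CPM or less. The mature arms are 21 to 24 bases long and the libraries hold inserts under 30 bases, so CPM was compared between these genes without dividing by gene length. Across all listed genes the means of the 5 ranked 6, 27, 50, 65 and 162.

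**Figure D2:**
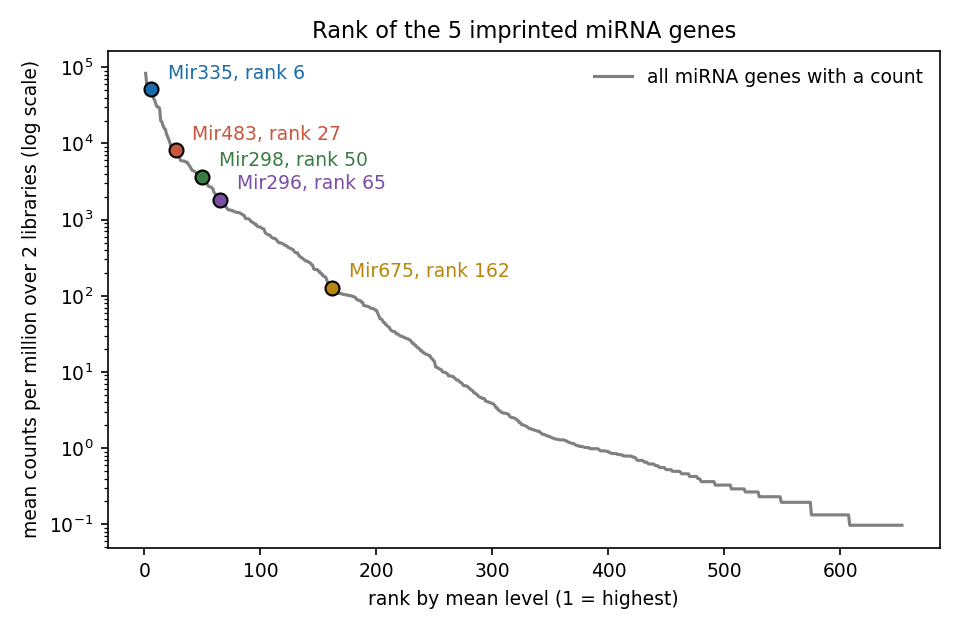
Mean CPM (log axis) of the 653 miRNA genes with a count, against their rank by mean level. The members sit at ranks 6, 27, 50, 65 and 162, Mir335 on the steep part with the most abundant genes and Mir675 where the curve has dropped to about 127 CPM.

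Ratios between members within a library do not depend on how libraries are scaled. At the Igf2 and H19 loci, reads of Mir483 outnumbered those of Mir675 by 59.2-fold in replicate 1 (53.9 to 65.2) and 69.0-fold in replicate 2 (64.0 to 74.4). The miRNA of Igf2 thus had more reads than that of H19 in both pups, by a ratio that moved 1.17-fold between them (1.03 to 1.31, Wald interval from the counts). How evenly the libraries captured different sequences was not measured, so these ratios are of reads. Parental alleles were not measured either. At Gnas, reads of Mir298 outnumbered those of Mir296 by 1.93-fold (1.88 to 1.99) and 2.08-fold (2.03 to 2.13). That ratio moved 1.08-fold between the libraries (1.04 to 1.12), the least of the 10 pairs. Mir335 exceeded Mir483 by 8.12-fold (8.02 to 8.23) in replicate 1 and 4.87-fold (4.82 to 4.92) in replicate 2. This pair moved the most of the 10, 1.67-fold (1.64 to 1.69), as the CPM of Mir335 was higher in replicate 1 and that of Mir483 in replicate 2. All 10 ratios moved beyond counting error.

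The 2 libraries were then set against each other. Each difference is a TMM-scaled log2 ratio, positive where replicate 2 was higher, with a 95% interval from counting error. An exact two-sided binomial test was run on 373 genes with at least 10 counts in total, with Benjamini-Hochberg adjustment over all of them, and it compares 2 libraries rather than conditions. None of the 5 members reached the call of an adjusted p under 0.05 with at least a 2-fold difference, which 19 of the 373 genes (5.09%) did. Without the 2-fold minimum 4 of the 5 passed, beside 183 of 373 genes (49.1%), so passing counting error was common at this depth. Of these 4, Mir483, Mir675 and Mir298 were higher in replicate 2, as were 26.0% of tested genes, and Mir335 was higher in replicate 1, as were 23.1%. The members had different depths, so the test could resolve a far smaller difference for Mir335 than for Mir675.

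Mir483 showed the largest difference of the 5, 0.56 (0.54 to 0.59), which is 1.48-fold. Among the 90 tested genes with a mean of at least 1000 CPM, whose median was 0.11, none had a higher log2 ratio. Among the 177 with at least 100 CPM 1 gene did, Mir181a-2 at 0.87 and 104 ± 36.8 CPM, named after its values were seen. Over all 373 tested genes, of any level, 28 had a higher log2 ratio than Mir483. Mir675 was also higher in replicate 2, by 0.34 (0.17 to 0.52, adjusted p = 0.000226 by the exact binomial test), and 33 of the 177 genes lay above it. Both genes of the Igf2 and H19 domain thus had more counts in the same library, with intervals that do not meet. Muscle markers were higher there too, 6 of 9 tested in replicate 2 and 0 in replicate 1 beyond counting error, with 0 called at 2-fold and a median log2 ratio of 0.35, and the Dlk1-Dio3 genes described below had a median of 0.36. The part of either in the values of Mir483 and Mir675 was not tested.

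Mir335 differed by -0.17 (-0.18 to -0.17), which is 1.13-fold higher in replicate 1, and 34 of the 177 genes had a lower ratio. The 8 epithelial and cartilage genes were also higher in replicate 1, at 1.22% of counts against 0.120%, and their part in the value of Mir335 was not tested. The Gnas pair lay close to 0. Mir298 differed by 0.082 (0.050 to 0.11, adjusted p = 1.26e-06 by the exact binomial test), a direction that turned under total-count scaling to -0.053 (adjusted p = 0.00262), which also passed the threshold. Mir296 differed by -0.024 (-0.069 to 0.021, adjusted p = 0.424), and under total-count scaling by -0.16 (adjusted p = 1.44e-11). TMM scaling raised every log2 ratio by 0.13 against total counts. The median absolute log2 ratio of the 177 genes was 0.22. Mir483 and Mir675 lay beyond that value, and Mir335, Mir296 and Mir298 within it.

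**Figure D3:**
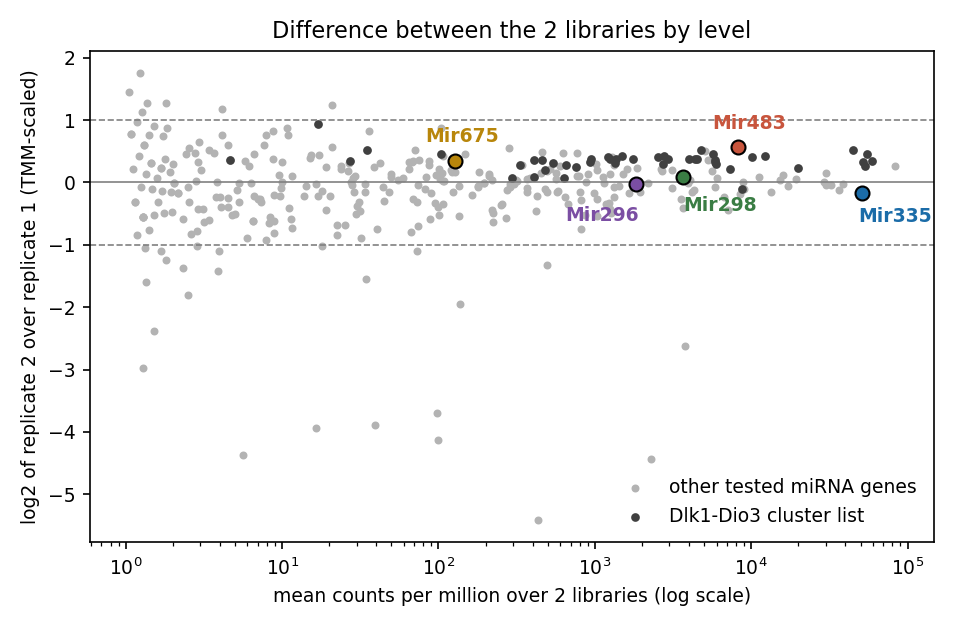
Log2 of replicate 2 over replicate 1 (TMM-scaled) against mean CPM (log axis) for the 373 tested genes, with the 5 members named, the Dlk1-Dio3 list in dark grey and dashed lines at a 2-fold difference. Mir483 at 0.56 lies at the upper edge of the abundant genes, Mir335 at -0.17 lies below the dark points of similar level, and the Gnas pair is near 0.

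Other imprinted miRNA genes gave a scale for these values. The Dlk1-Dio3 cluster, whose miRNAs come from maternally expressed non-coding RNAs, had 48 of 56 fixed names listed and held 36.0% and 42.0% of counts. By mean CPM, 4 of these 48 genes lay above Mir335, 9 above Mir483, 18 above Mir298, 22 above Mir296 and 40 above Mir675. Its most abundant genes were Mir487b at 58765 ± 5966 CPM, whose hairpin shares 20 bases with another miRNA gene and whose count is uncertain for that reason, and Mir431 at 55081 ± 8593 CPM. Of its 45 tested genes, 39 were higher in replicate 2 and 1 in replicate 1 beyond counting error, with 0 called at 2-fold and a median log2 ratio of 0.36 beside 0.0091 over all tested genes. All 45 had a higher log2 ratio than Mir335, and 1, Mir544 with 46 and 111 counts (0.95), had a higher one than Mir483. The gene higher in replicate 1 was Mir541, at -0.11. Mir544 and Mir541 were named after their values were seen. The cluster's counts were 6.35 times those of Mir335 in replicate 1 and 9.18 times in replicate 2.

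The 2 other imprinted groups had few counts. Inside Sfmbt2, a paternally expressed gene with a large repeated miRNA cluster in an intron, 107 genes were listed and 90 had 0 counts in both libraries. They held 0.0999% and 0.0860% of counts, less than Mir296 alone, led by Mir467e at 286 ± 22.0 CPM and Mir467d at 285 ± 29.9 CPM. Of the 8 tested there, 0 were called at 2-fold, and the median log2 ratio was -0.079. Beyond counting error, 0 were higher in replicate 2 and 2 in replicate 1, beside 26.0% and 23.1% of all tested genes. These 2, named after their values were seen, were Mir669c (-0.51) and Mir669o (-0.27). The genes of that cluster are near copies of each other, so reads that map to several places can be missing from their counts. Of 13 listed genes of the Mir344 family, 10 had 0 counts in both libraries, 1 was tested with 0 past the threshold, and the highest, Mir344g, had 8 and 10 counts. Its next gene, Mir344b, had 4 in each library.

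Around the members, the other miRNA genes within 1 Mb were lower. Near Mir335, 6 others were listed. Mir29a, of a family linked to extracellular matrix genes, had 180 ± 16.9 CPM, and Mir182, of a sensory and epithelial cluster, had 137 ± 120 CPM. Mir182 was called higher in replicate 1 (log2 ratio -1.96), as were its cluster partners Mir96 (-1.55) and Mir183 (-1.09), all on the opposite strand and 572 to 575 kb from Mir335, which itself differed by -0.17. Mir29a differed by -0.057. Within 1 Mb of Mir483 and Mir675, the other genes were Mir7064 with 3 and 4 counts, Mir7063 with 2 and 4, and Mir3104 with 0 in both. Near the Gnas pair, the other 2 genes, Gm27591 and Mir6340, had 0 counts in both libraries, which allows up to 0.799 CPM in replicate 1 and 0.584 CPM in replicate 2.

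**Figure D4:**
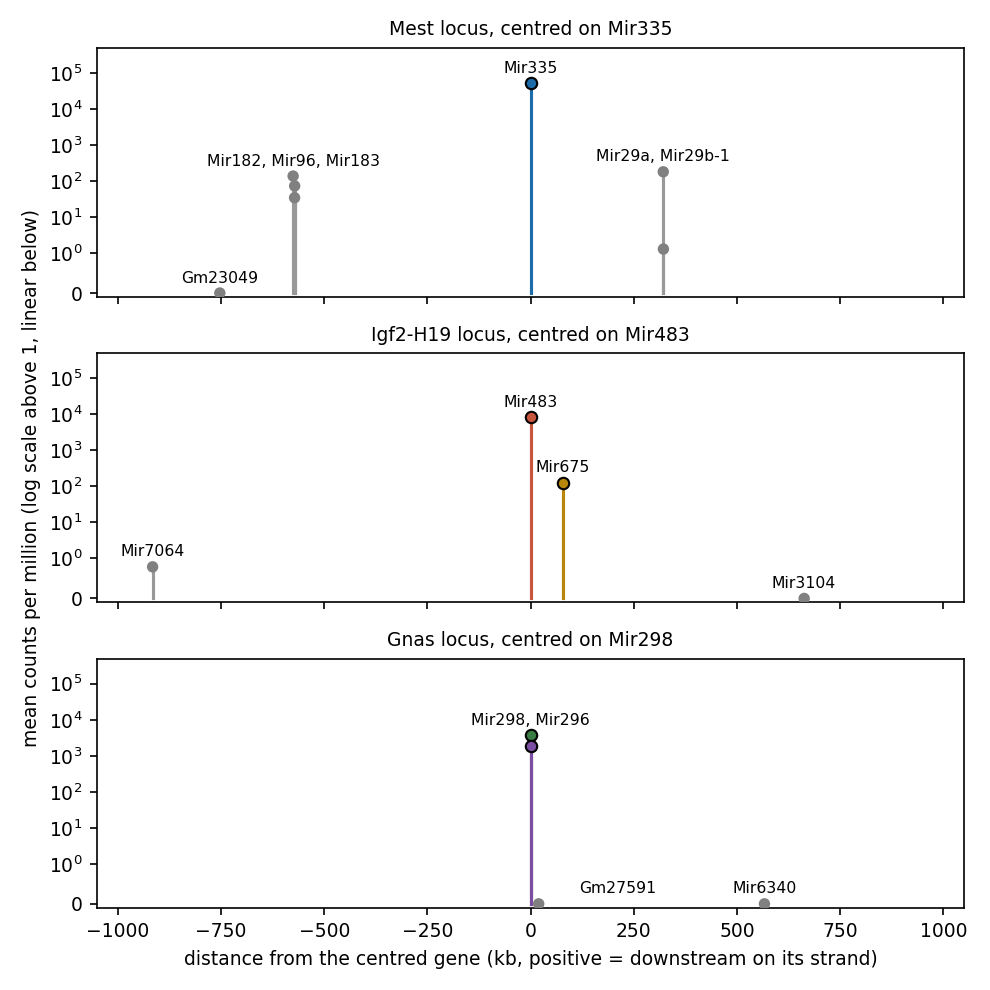
Mean CPM (log axis above 1, linear below) of the listed miRNA genes within 1 Mb of Mir335, Mir483 and Mir298, by distance in kb along the strand of the centred gene. Members are outlined in black. In each panel they stand above the other genes, the highest of which is Mir29a at 180 CPM in the Mest panel.

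By Euclidean distance of log2(CPM + 1) over the 2 libraries, a measure that rests mainly on level, the genes closest to Mir335 were Mir127 (distance 0.33) and Mir411 (0.36), both of the Dlk1-Dio3 cluster. Both were higher in replicate 2, at 0.27 and 0.33, unlike Mir335. The closest to Mir483 were Mir382 (0.32) and Mir10b (0.44), and neither had its 0.56 between libraries, with 0.22 and 0.011. The closest to Mir675 were Mir190a (0.12) and Mir204 (0.14). Mir296 was nearest to Mir423 (0.073) and Mir10a (0.15), and Mir298 to Mir30d (0.15) and Mir652 (0.21). The counts of Mir411 and Mir190a are uncertain, since their hairpins share 20 bases with another miRNA gene. The hairpin of Mir30d was not in the sequence table and could not be checked.

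The strand opposite the members was nearly empty. Mir335 had 0 and 1 counts there, and the other 4 genes had 0 in both libraries, which allows up to 3 counts each. Reads assigned to these genes therefore lay on their own strand, with multimapping reads not included.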

How the data were processed

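The authors deposited raw counts per miRNA gene, 1 table per library, on build mm10 with annotation M4, per the deposited description files. The aligner and counter are not given in the sources used here. The tables name no columns. The first equals the sum of the other 2 in every gene and was read as either strand, the second as the gene's own strand and the third as the opposite strand, from layout and totals. Lines for multimapping (30.2% and 29.9% of reads), unmapped (9.66% and 10.1%), no-feature (7.56% and 8.44%) and ambiguous reads (0) stayed out of library sizes.

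Names and places came from GENCODE M21 (same build), which matched 1894 of 1973 identifiers. The other 79 had at most 1 count. CPM used own-strand totals. Ratios used TMM factors (edgeR 4.0.16, R 4.3.3) over genes with at least 10 counts and a pseudocount of 0.5. The exact binomial test and 95% Clopper-Pearson intervals used scipy 1.17.1, and DESeq2 1.42.0 gave alternative size factors. Intervals, and the floor of 3 counts, cover counting error only, since the tables hold no molecular identifiers. The chi-square of the 2 libraries was 281 times its degrees of freedom, so they were not copies. Folding used ViennaRNA 2.7.2. The script for the binomial test was tested on simulated libraries with counting error and planted fold changes in some genes. Those libraries held no variation between pups, and the p-values take no account of it.

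Members and lists were chosen with earlier results of these data known. Named were the 5 members, the 2 genes nearest each in level, miRNA genes within 1 Mb (those of at least 100 CPM, with others given where few), and the 2 most abundant genes of each other imprinted list. Alternatives were other strands, denominators, scalings, pseudocounts, count minimums and each replicate left out.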

Additional observations from a re-analysis of the deposited data

How the results depend on the processing

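The order of the 5 genes was the same under every CPM alternative and in each replicate alone. Over all reads the mean CPM was 26727 for Mir335, 4263 for Mir483, 1910 for Mir298, 954 for Mir296 and 66.2 for Mir675, because the denominator grows. Without the Dlk1-Dio3 genes it was 83801, 13566, 6021, 3000.0 and 210 in that order, and without the other genes among the 10 most abundant 93839, 16681, 7430, 3705 and 258. Counting either strand gave 3274 for Mir298, 1635 for Mir296 and 113 for Mir675. The members' mean share of 6.51% became 5.81% with either strand, 3.39% over all reads, 10.7% without the Dlk1-Dio3 genes and 1.38% without Mir335. TMM-scaled library sizes moved no mean by 1 SD. Leaving out a replicate gave 45784 to 56708 for Mir335, 6983 to 9403 for Mir483, 3598 to 3733 for Mir298, 1729 to 1931 for Mir296, 118 to 136 for Mir675 and 6.07% to 6.95% for the share. With 2 libraries such values always lie within 1 SD of the mean, so they say nothing about stability. Total-count scaling turned the log2 ratio of Mir298 to -0.053, which passed the threshold in that direction (adjusted p = 0.00262 by the exact binomial test), and gave -0.16 for Mir296, which then passed as well. Mir335, Mir483 and Mir675 kept direction and side in all alternatives for the ratio. Under total-count scaling Mir675 came close to the threshold, at 0.21 (adjusted p = 0.0375 by the exact binomial test). Called genes ran from 13 to 22 around 19, with 0 of the 5 members in any setting. The smallest depth was that of Mir675, at 443 and 700 counts. No paired analysis was possible because the labels hold a single group.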
